A study of Mus musculus with 7 samples.

Results

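The genes described here encode the proteins that fill the granules of eosinophils: Prg2, Prg3, Epx, Ear1, Ear2, Ear6 and Ear10. They were chosen by symbol, and all 7 were rows of a count table of 34305 gene symbols measured in mouse haematopoietic stem and progenitor cells (HSPCs) in culture. Of these, 6 had enough counts to be tested, and Ear10 did not.

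The MN1 group (3 libraries) held HSPCs overexpressing MN1, a transcriptional coregulator gene involved in acute myeloid leukaemia. The MN1pQdel group (3 libraries) held HSPCs overexpressing MN1-∆pQ, which the name gives as MN1 with a pQ deletion. The noTD group (1 library) held untransduced cells. Cells of the transduced groups were sorted after transduction, and culture lasted 7 to 9 days in medium with mouse IL-3, IL-6 at 10 ng/mL and stem cell factor at 20 ng/mL. The labels give no mouse strain or age, no day per library and no vector promoter. The design text gives 3 independent samples a group, but it is not told if each library had its own animal. A p-value here therefore covers the spread among libraries, which may not be the spread among animals.

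Eosinophils are granulocytes that arise from myeloid progenitors under GATA1, C/EBP factors and PU.1, and IL-5 expands the lineage. Their large granules store cationic proteins that are made early, during the progenitor and promyelocyte stages. Granule transcripts are used as markers of eosinophil precursors, but the cells that made them were not identified here. Prg2 encodes major basic protein, which forms the granule core, and Prg3 encodes its homologue. Epx encodes eosinophil peroxidase, a haem enzyme that makes hypohalous acids. The Ear genes encode eosinophil-associated ribonucleases of the RNase A superfamily, a family that has multiplied in rodents.

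The 7 genes lie on 3 chromosomes (GRCm38, GENCODE annotation). Prg2 (chr2:84980461-84983632, plus strand) and Prg3 (chr2:84988215-84993886, plus strand) are neighbours, 4583 bases apart. Epx (chr11:87864000-87875536, minus strand) lies 35.7 kb from Lpo and 59.6 kb from Mpo, which encode the related lactoperoxidase and myeloperoxidase. Ear1 (chr14:43818765-43875517, minus strand), Ear10 (chr14:43922720-43923559, minus strand) and Ear2 (chr14:44102654-44103534, plus strand) span 284.8 kb. Ear6 (chr14:51853699-51854643, plus strand) lies 7.75 Mb beyond Ear2. The first 90 coding bases of the Ear genes show how close the copies are; capitals mark bases that differ from Ear1.
Ear1: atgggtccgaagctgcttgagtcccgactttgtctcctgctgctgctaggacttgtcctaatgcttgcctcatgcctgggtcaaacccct
Ear2: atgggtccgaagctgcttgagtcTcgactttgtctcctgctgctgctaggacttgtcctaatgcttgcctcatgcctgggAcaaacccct
Ear10: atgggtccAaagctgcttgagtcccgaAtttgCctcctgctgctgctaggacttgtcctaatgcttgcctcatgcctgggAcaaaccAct
Ear6: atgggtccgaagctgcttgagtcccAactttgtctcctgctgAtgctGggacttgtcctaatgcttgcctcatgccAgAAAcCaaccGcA
These stretches are chr14:43819320-43819409 for Ear1, chr14:44102887-44102976 for Ear2, chr14:43923279-43923368 for Ear10 and chr14:51853998-51854087 for Ear6. Ear2 differed from Ear1 at 2 of the 90 bases, Ear10 at 5 and Ear6 at 10. Over the whole transcript, Ear1 and Ear2 were 96.11% identical, and Ear1 and Ear10 87.87%. Of all 31-base words in the Ear1 transcript, 73.65% also occurred in another gene; the share was 60.52% for Ear2, 49.54% for Ear10 and 9.15% for Ear6. No such word of Prg2, Prg3 or Epx occurred in another gene. Of the Ear1 words, 40.56% occurred in Ear2 and 25.04% in Ear10. The split of counts among Ear1, Ear2 and Ear10 is therefore uncertain, and the sum of the 4 Ear genes is given beside them. Ear14, Rnase2a and Rnase2b, which are outside the sum, also held Ear1 words, and the sum does not settle reads shared with such genes.

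The libraries held 38210847 to 67728808 estimated counts. The Mn1 row stood at 297 ± 15.1 CPM (counts scaled to the same effective library total, SD, n = 3) in MN1, 607 ± 177 (SD, n = 3) in MN1pQdel and 33.6 in noTD. It checks the labels of transduced against untransduced libraries, but not those of MN1 against MN1pQdel. Its mean was higher in MN1pQdel than in MN1, and the part of that difference in the results below was not tested. MN1pQdel replicate 2 stood apart from its group: its counts differed from those of replicates 1 and 3 with a chi-square of 306 and 355 per gene, against 73.6 between replicates 1 and 3. Results are therefore also given without it. Summed CPM of 8 stem and progenitor markers ranged from 551 to 1313 over the 7 libraries, while 13 neutrophil markers summed to 4393 to 38839, so the cultures also held transcripts of maturing cells.

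Every tested granule gene was far lower in MN1 than in MN1pQdel. The fall was 91.1-fold for Prg3, the smallest, and 169-fold for Ear6, the largest. All 6 tested genes passed the threshold (edgeR quasi-likelihood test, adjusted p under 0.05), whereas 11.1% of the 14808 genes tested were called lower in MN1 and 6.08% higher. In each of the 6 genes every MN1 library lay below every MN1pQdel library, which held for 21.7% of all tested genes. In bulk RNA, fewer cells that express these genes and less RNA per cell cannot be told apart.

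**Figure D1:**
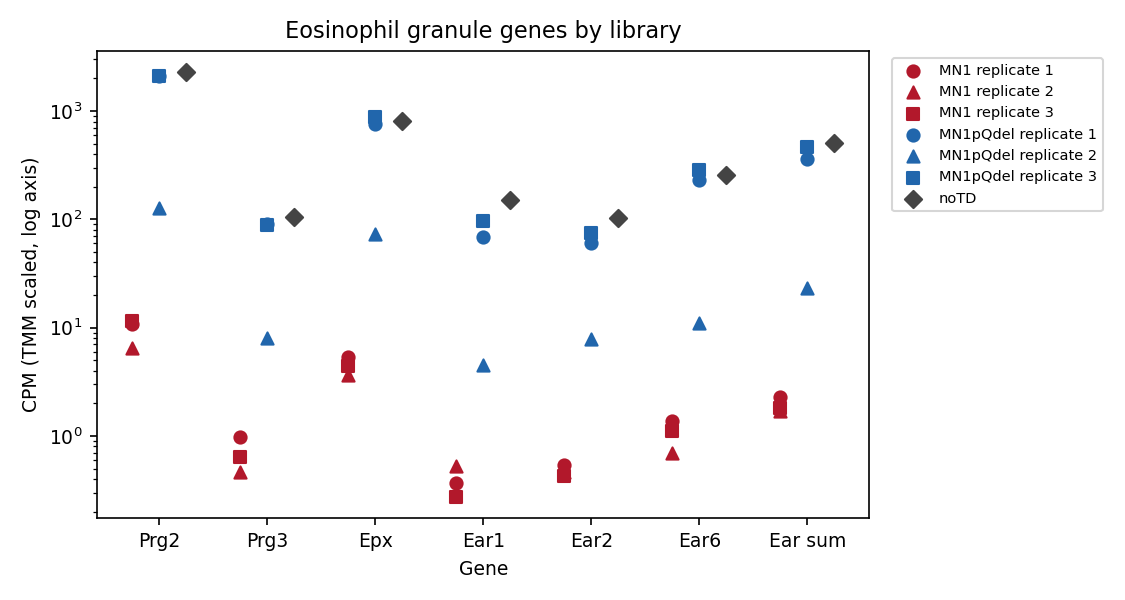
CPM of each tested granule gene and of the Ear sum, on a log axis, with 1 point per library. All MN1 points lie below all MN1pQdel points, MN1pQdel replicate 2 lies between the groups' other libraries, and noTD lies near MN1pQdel replicates 1 and 3.

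Prg2, the major basic protein gene, was per kilobase the most abundant of the granule genes in every library. It stood at 10.7, 6.50 and 11.5 CPM in MN1 replicates 1, 2 and 3, at 2115, 127 and 2112 CPM in MN1pQdel replicates 1, 2 and 3, and at 2293 CPM in noTD. The groups did not overlap, and MN1pQdel replicate 2, although 16.6-fold below the mean of its 2 partners, was still 11.1-fold above the highest MN1 library. The log2 fold change of Prg2, MN1 minus MN1pQdel, was -7.26 (SE 1.13, edgeR adjusted p = 0.0113), and -7.78 (SE 0.28) without MN1pQdel replicate 2, where all 6 granule genes were called and 21.3% of all tested genes were lower and 20.6% higher. Prg3, its neighbour on chromosome 2, stood at 0.976, 0.463 and 0.636 CPM in MN1, at 90.03, 8.10 and 88.9 CPM in MN1pQdel and at 104 CPM in noTD. Those MN1 values rest on 40, 20 and 30 counts. The order of the libraries was that of Prg2 between groups, with no overlap and with MN1pQdel replicate 2 again the lowest of its group. The log2 fold change of Prg3 was -6.51 (SE 1.01, edgeR adjusted p = 0.0112).

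The peroxidase gene Epx stood at 5.32, 3.66 and 4.45 CPM in MN1 replicates 1, 2 and 3. In MN1pQdel it stood at 760, 73.5 and 884 CPM, and in noTD at 806 CPM. The highest MN1 library was 13.8-fold below MN1pQdel replicate 2, so the groups did not overlap. Its log2 fold change was -7.01 (SE 0.99, edgeR adjusted p = 0.00903).

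Among the ribonucleases, Ear6, the copy that shares the fewest 31-base words, stood at 1.37, 0.694 and 1.10 CPM in MN1, at 229, 11.1 and 289 CPM in MN1pQdel and at 257 CPM in noTD. Ear1 stood at 0.366, 0.532 and 0.276 CPM in MN1, at 69.3, 4.52 and 97.0 CPM in MN1pQdel and at 151 CPM in noTD. Ear2 stood at 0.537, 0.463 and 0.424 CPM in MN1, at 61.1, 7.80 and 75.2 CPM in MN1pQdel and at 103 CPM in noTD. All 3 showed the same layout as the core genes, with no overlap between the groups and MN1pQdel replicate 2 in between. The MN1 values of Ear1 rest on 13 to 23 counts and those of Ear2 on 20 to 22. The log2 fold changes were -7.40 for Ear6 (SE 1.26, edgeR adjusted p = 0.0142), -7.20 for Ear1 (SE 1.21, edgeR adjusted p = 0.0136) and -6.67 for Ear2 (SE 0.92, edgeR adjusted p = 0.00876). The Ear sum, which does not depend on how reads were split among the 4 genes, stood at 2.27, 1.69 and 1.80 CPM in MN1, at 359, 23.4 and 461 CPM in MN1pQdel and at 512 CPM in noTD. Its log2 fold change was -7.21 (SE 1.14, edgeR adjusted p = 0.0119). Ear10 had 0 counts in every MN1 library, 1, 0 and 0 counts in MN1pQdel and 2 in noTD. All of these are below the 3 counts that a count of 0 allows, so no fold is given for Ear10.

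Directions held in every alternative, but several calls did not hold with 1 library fewer. The number of granule genes called was 3, 2 and 1 of 6 without MN1 replicate 1, 2 and 3, and 4, 6 and 6 without MN1pQdel replicate 1, 2 and 3. Calls over all genes moved as well: 2.87%, 2.67% and 2.49% of tested genes were lower without MN1 replicate 1, 2 and 3, and 2.72%, 21.3% and 4.51% without MN1pQdel replicate 1, 2 and 3. The largest adjusted p over these fits ranged from 0.0491 for Ear2, the only gene of the 6 called in each, to 0.0713 for Ear6.

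**Figure D2:**
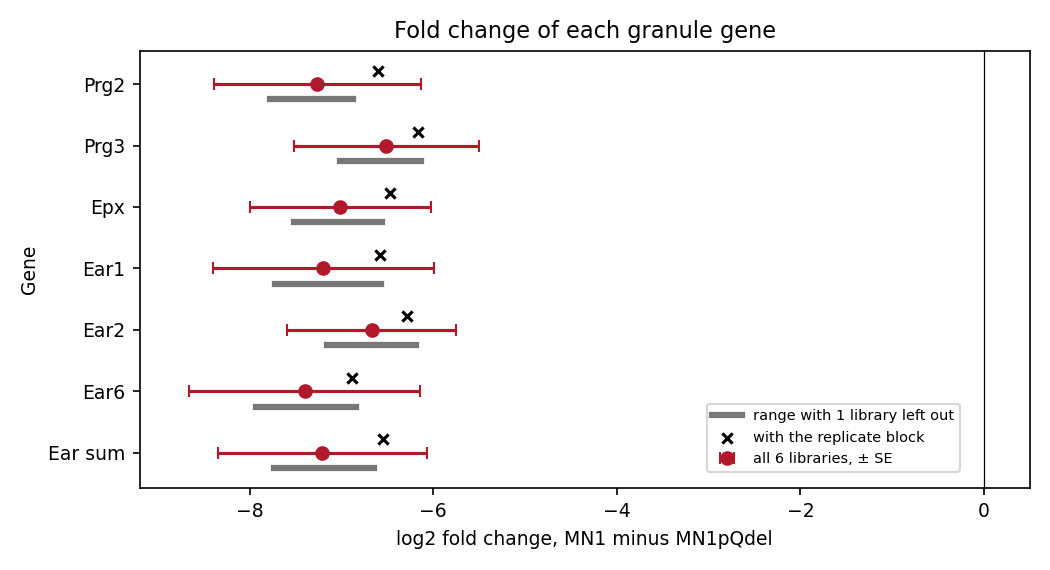
Log2 fold change, MN1 minus MN1pQdel, of each tested granule gene and the Ear sum, with the SE as whiskers, the range over the fits that leave out 1 library as a grey bar, and the fit with the replicate block as a cross. Every estimate lies between -7.93 and -6.13, far from 0.

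Against noTD, which is 1 library and so allows no test, the granule genes were lower in MN1 by a mean log2 difference of -7.21 for Prg3 to -8.48 for Ear1. All 6 were over 2-fold lower, compared with 14.9% of all tested genes (10.8% were over 2-fold higher). In MN1pQdel the 3 libraries differed. Replicates 1 and 3 were close to noTD for Prg2 (log2 difference -0.12 and -0.12) and Epx (-0.08 and 0.13). Ear1 was lower in both (-1.13 and -0.64), as was Ear2 (-0.75 and -0.45), and Ear6 stood at -0.17 and 0.16. The mean of replicates 1 and 3 was over 2-fold below noTD in 2.63% of all tested genes. MN1pQdel replicate 2 was lower than noTD by -3.45 (Epx) to -5.05 (Ear1); 10.2% of all tested genes were over 2-fold lower in that library. The mean of MN1pQdel was over 2-fold below noTD for all 6 genes (3.08% of all tested genes, with 1.56% over 2-fold higher), and that mean rests on replicate 2. The MN1pQdel and MN1 comparisons share the noTD library.

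As a share of all counts in a library, the 7 genes together made up 0.00207%, 0.00132% and 0.00200% in MN1 replicates 1, 2 and 3. They made up 0.302%, 0.0231% and 0.332% in MN1pQdel replicates 1, 2 and 3, and 0.351% in noTD, for which the exact binomial 95% interval was 0.349% to 0.353%. Such intervals cover counting error only.

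The mix of granule transcripts was far steadier than their level. Per kilobase of transcript, Prg2 made up 68.8%, 65.9% and 75.1% of the summed granule counts in MN1, 75.6%, 69.9% and 71.9% in MN1pQdel and 72.2% in noTD. Epx made up 7.91% to 12.6% over the 7 libraries, Ear6 5.73% to 9.21% and Prg3 2.67% to 5.54%. Ear1 ranged from 2.12% to 6.34% and Ear2 from 2.54% to 5.47%, the pair whose split is least certain. The mean share of Prg2 differed by -2.51 percentage points, MN1 minus MN1pQdel, and that of Prg3 by 1.31. No share differed by the exact two-sided permutation test (p = 0.2 to 1.0, adjusted p = 1.0), but 3 libraries against 3 cannot go below p = 0.1, so this test could not have called a difference.

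**Figure D3:**
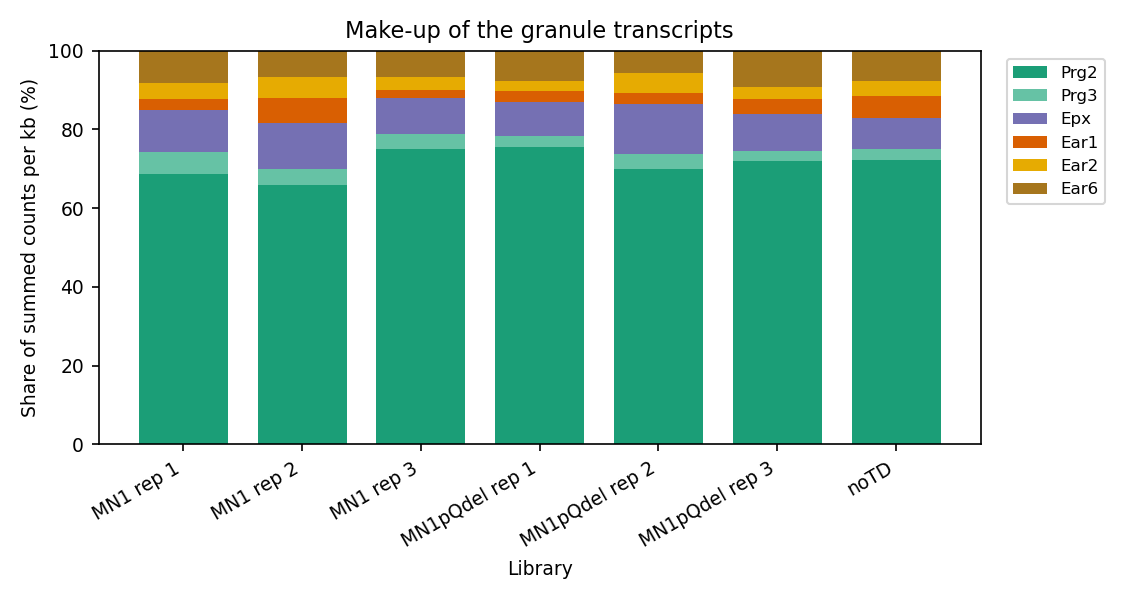
Share of each granule gene in the summed counts per kilobase, for each of the 7 libraries. Prg2 makes up 65.9% to 75.6% in every library.

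Promoters are shown because the genes moved together. The RefSeq promoter table used (GRCm38.p6) matched 6 of the 7 genes, all but Prg2. For Ear1, Ear2 and Ear10 the 250 bases before the start are printed with capitals where a base differs from Ear1.
Ear1: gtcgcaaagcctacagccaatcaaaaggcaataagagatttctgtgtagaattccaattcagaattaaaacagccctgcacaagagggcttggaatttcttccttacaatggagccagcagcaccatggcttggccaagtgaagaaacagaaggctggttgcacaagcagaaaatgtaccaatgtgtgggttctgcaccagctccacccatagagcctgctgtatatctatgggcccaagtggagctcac
Ear2: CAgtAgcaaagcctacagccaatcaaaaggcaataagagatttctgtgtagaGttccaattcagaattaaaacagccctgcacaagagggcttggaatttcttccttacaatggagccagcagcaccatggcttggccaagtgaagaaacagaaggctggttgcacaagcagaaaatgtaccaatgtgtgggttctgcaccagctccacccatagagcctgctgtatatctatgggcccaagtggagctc
Ear10: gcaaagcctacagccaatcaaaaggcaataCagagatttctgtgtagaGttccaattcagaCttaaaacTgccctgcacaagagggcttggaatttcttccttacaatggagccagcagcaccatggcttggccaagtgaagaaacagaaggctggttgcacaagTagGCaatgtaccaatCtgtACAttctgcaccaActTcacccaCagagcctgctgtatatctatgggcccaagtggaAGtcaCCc
These are chr14:43819640-43819889 (minus strand), chr14:44102404-44102653 (plus strand) and chr14:43923597-43923846 (minus strand). The Ear2 promoter was 97.62% identical to that of Ear1 and the Ear10 promoter 91.7%, although Ear10 had almost no counts. The Ear6 window was 78.23% identical to that of Ear1, but 69 of its bases lie within the gene as GENCODE annotates it, so it is not promoter alone. The whole Ear1 window lies within the Ear1 gene as GENCODE annotates it (chr14:43818765-43875517). The same limit therefore holds for Ear1, to which the others are compared. For Prg3 (chr2:84987965-84988214, plus strand), capitals mark matches to the motifs searched.
Prg3: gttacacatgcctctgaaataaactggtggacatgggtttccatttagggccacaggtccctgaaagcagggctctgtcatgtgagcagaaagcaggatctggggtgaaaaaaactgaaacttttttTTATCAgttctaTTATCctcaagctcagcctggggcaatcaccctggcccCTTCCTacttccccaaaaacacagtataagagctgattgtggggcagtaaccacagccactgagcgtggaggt
For GATA factors the motif was GATAA, with the longer form AGATAA searched on its own and TGATAA likewise. The others were TTGCNNAA and TTGCGCAA for C/EBP factors, and AGGAAG and GAGGAAGT for PU.1, on both strands. Both longer GATA forms contain the short one, TTGCGCAA is a form of TTGCNNAA, and GAGGAAGT contains AGGAAG. Prg3 held 2 matches to GATAA, 1 of them within TGATAA, and 1 to AGGAAG. Ear1, Ear2 and Ear10 each held 1 match to TTGCNNAA and 1 to AGGAAG. The Epx promoter held no match to any of the 7, nor did the Ear6 window with its 69 annotated bases. Of 32851 promoters of this length, 22.58% held GATAA, 9.56% held TTGCNNAA and 29.48% held AGGAAG.

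Other genes of the eosinophil programme were read from 4 lists, of receptors, transcription factors, enzymes and granule traffic. Together 33 of 62 tested genes were lower in MN1 and 0 were higher, against 11.1% and 6.08% of all tested genes. Their median log2 fold change was -1.23, and over all tested genes the median was -0.01. Without MN1pQdel replicate 2, 50 of 64 were lower and 3 higher, against 21.3% and 20.6% of all tested genes. Without any other single library 10 to 14 were lower, against 2.49% to 4.51%. With the replicate block, which takes the replicate numbers as pairs, 49 of these genes were lower and 1 was higher, against 17% and 13.7%. Their changes were much smaller than those of the granule genes, apart from Alox15.

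**Figure D4:**
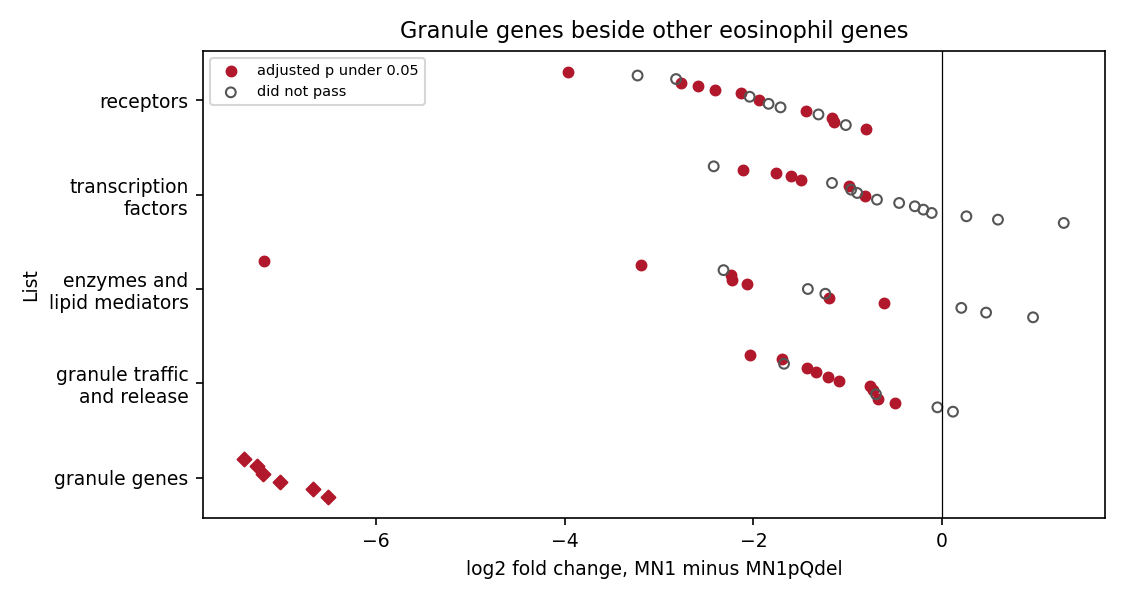
Log2 fold change, MN1 minus MN1pQdel, of each tested gene of the 4 eosinophil lists (circles, filled where adjusted p was under 0.05) and of the 6 granule genes (diamonds). The granule genes lie between -7.40 and -6.51, and Alox15, at -7.19, is the circle that lies among them.

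Of the receptors, 10 of 17 were lower. Without MN1pQdel replicate 2, 17 of 18 were lower, and with the replicate block 17 of 17, against 21.3% and 17% of all tested genes. Csf2rb, which encodes the beta chain shared by the IL-3, IL-5 and GM-CSF receptors, fell by 1.94 on the log2 scale (edgeR adjusted p = 0.0420). Its homologue Csf2rb2, which serves the IL-3 receptor, fell by 2.76 (edgeR adjusted p = 0.0481). Both passed in 1 of the 6 fits that left out a library, and Csf2rb2 was at adjusted p = 0.05002 with library totals alone. Adgre4, an adhesion receptor, changed by -3.96 (edgeR adjusted p = 0.0283), Cd300lf, an inhibitory receptor, by -2.58 (edgeR adjusted p = 0.0106), and the integrin gene Itgam by -2.40 (edgeR adjusted p = 0.00520). Il5ra, the IL-5 receptor alpha chain, stood at 0.878, 0.509 and 1.57 CPM in MN1, at 6.75, 1.04 and 12.9 CPM in MN1pQdel and at 7.23 CPM in noTD. These groups overlapped at MN1pQdel replicate 2, and Il5ra did not pass (log2 fold change -2.82, edgeR adjusted p = 0.0694). It passed with the replicate block (edgeR adjusted p = 0.0289) and without MN1pQdel replicate 2 (edgeR adjusted p = 0.00416). It also passed with the DESeq2 Wald test (DESeq2 adjusted p = 0.00278) and without the replicate 2 pair (edgeR adjusted p = 0.0118). Ccr3, the eotaxin receptor, was at most 4.82 CPM in any library and did not pass (-1.31, edgeR adjusted p = 0.221); it passed with the block (edgeR adjusted p = 0.0441) and without MN1pQdel replicate 2 (edgeR adjusted p = 0.0308). Siglec5, the symbol under which RefSeq lists Siglecf, fell by 1.16 (edgeR adjusted p = 0.0297). Adgre4 and Siglec5 passed in 2 of the 6 fits that left out a library, Cd300lf in 5 and Itgam in 6.

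Of the transcription factors, 6 of 18 were lower and 0 higher. Without MN1pQdel replicate 2, 10 were lower and 3 higher, against 21.3% and 20.6% of all tested genes. With the replicate block 11 were lower and 1 higher, against 17% and 13.7%. The late granulocyte factor gene Cebpe stood at 37.4, 30.02 and 24.6 CPM in MN1 replicates 1, 2 and 3 and at 121, 141 and 133 CPM in MN1pQdel (log2 fold change -2.11, edgeR adjusted p = 0.00436). Unlike the granule genes, Cebpe was not low in MN1pQdel replicate 2. Spi1, which encodes PU.1, changed by -0.98 (edgeR adjusted p = 0.0122). Id2, Bhlhe40 and Runx1 also fell, with log2 fold changes of -1.76, -1.60 and -1.49, but each passed in 1 of the 6 fits that left out a library, and Bhlhe40 was at adjusted p = 0.0543 with library totals alone. Gata1 (-1.17, edgeR adjusted p = 0.125), Gata2 (-0.96, edgeR adjusted p = 0.148), Cebpa (0.26, edgeR adjusted p = 0.606) and Xbp1 (-0.20, edgeR adjusted p = 0.248) did not pass. Without MN1pQdel replicate 2, Gata1 (-1.50, edgeR adjusted p = 0.0130) and Gata2 (-1.29, edgeR adjusted p = 0.0108) were lower and Cebpa (0.80, edgeR adjusted p = 0.00805) was higher. With the replicate block Gata1 (edgeR adjusted p = 0.0245) and Gata2 (edgeR adjusted p = 0.0366) also passed.

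Of the enzymes, 7 of 13 were lower. Without MN1pQdel replicate 2, 11 of 14 were lower, and with the replicate block 10 of 13, against 21.3% and 17% of all tested genes. Alox15, the arachidonate lipoxygenase of eosinophils, stood at 0.293, 0.185 and 0.573 CPM in MN1, at 67.3, 1.35 and 85.7 CPM in MN1pQdel and at 75.1 CPM in noTD (log2 fold change -7.19, edgeR adjusted p = 0.0261). Alox15 passed in 1 of the 6 fits that left out a library. The phospholipase gene Plbd1, the chitinase-like Chil3 and the NADPH oxidase subunit gene Cybb changed by -3.19, -2.24 and -2.23. Of the granule traffic genes, 10 of 14 were lower, led by the fusion protein gene Stx3 (-2.03), the granule membrane tetraspanin Cd63 (-1.70), the protease inhibitor Serpinb1a (-1.44) and the granule proteoglycan Srgn (-1.34). In that list 12 were lower without MN1pQdel replicate 2 and 11 with the replicate block. Stx3, Cd63 and Srgn passed in 1 of the 6 fits that left out a library and Serpinb1a in 3. Srgn was at adjusted p = 0.0555 with library totals alone and 0.0506 with DESeq2 size factors.

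Most relatives of the granule genes did not pass the test. Of the RNase A genes outside the Ear rows, 5 were tested and 1 passed. Rnase12 fell from 3.94 ± 2.37 CPM in MN1pQdel to 0.347 ± 0.201 CPM in MN1 (SD, n = 3; log2 fold change -3.51, edgeR adjusted p = 0.0207), and passed in 1 of the 6 fits that left out a library. Rnase6 (-2.30, edgeR adjusted p = 0.0884), Rnase4 (-0.70), Rnase10 (-0.15) and Ang (-0.06) did not pass. Rnase6 passed with the replicate block (edgeR adjusted p = 0.0374) and without MN1pQdel replicate 2 (-2.78, edgeR adjusted p = 0.00430). Rnase2a, which RefSeq also names Ear11, reached 12 counts in its highest library and was not tested. Mpo, the peroxidase gene 59.6 kb from Epx, stood at 2035, 2344 and 928 CPM in MN1, at 998, 4301 and 324 CPM in MN1pQdel and at 550 CPM in noTD. Mpo was highest in MN1pQdel replicate 2, the library with the least Epx in its group, and its groups overlapped (log2 fold change -0.09, edgeR adjusted p = 0.949). Lpo, between Mpo and Epx, did not pass either (-0.11, edgeR adjusted p = 0.940).

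Genes that flank the granule genes were also read. Of 27 protein-coding neighbours (the 3 nearest on each side of each locus and those inside it), 12 were tested, 1 was lower in MN1 and 0 were higher. Over all tested genes 11.1% were lower and 6.08% higher. Without MN1pQdel replicate 2, 2 neighbours were lower and 5 higher, against 21.3% and 20.6% of all tested genes. With the replicate block 1 was lower and 3 higher, against 17% and 13.7%. Slc39a2, a zinc transporter gene 38.25 kb from Ear6, changed by -0.97 (edgeR adjusted p = 0.0469) and also passed in 1 of the 6 fits that left out a library; it was at adjusted p = 0.0707 with library totals alone and 0.0712 with no low count filter. P2rx3, 4.7 kb beyond Prg3, averaged 33.9 ± 1.44 CPM (SD, n = 3) across MN1 and 4.60 ± 5.68 CPM (SD, n = 3) across MN1pQdel and did not pass (log2 fold change 2.87, edgeR adjusted p = 0.0645). It passed as higher in MN1 without MN1pQdel replicate 2 (4.64, edgeR adjusted p = 0.000712) and with the block (3.64, edgeR adjusted p = 0.0346). Mks1, 0.2 kb from Epx, changed by 0.35 and did not pass (edgeR adjusted p = 0.239). Slc43a1 (2.18), Slc43a3 (0.30), Ssrp1 (0.65) and Tnks1bp1 (0.29) around Prg2 and Prg3 did not pass, nor did Gm8113 (-0.80), Mettl17 (-0.06) and Ndrg2 (0.07). Without MN1pQdel replicate 2 the 4 around Prg2 and Prg3 passed as higher (0.56 to 3.31) and Gm8113 as lower (-1.20). With the block Slc43a1 and Ssrp1 passed. P2rx3 and Slc43a1 also passed as higher with the DESeq2 Wald test and with no low count filter.

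**Figure D5:**
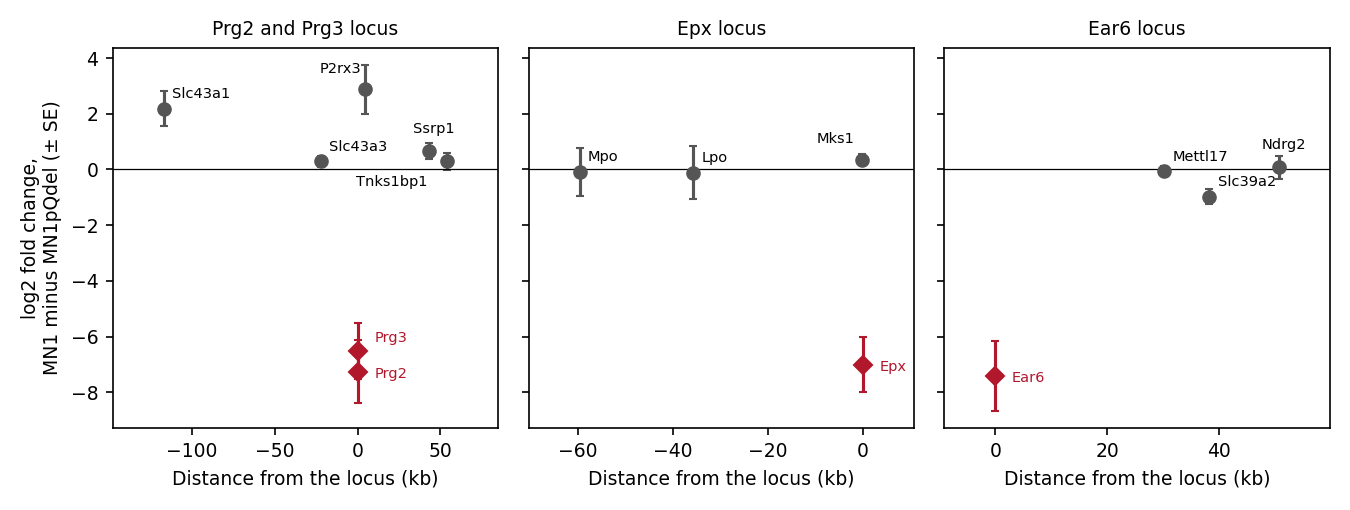
Log2 fold change, MN1 minus MN1pQdel, with SE, of tested neighbours (grey) and granule genes (red) at the Prg2 and Prg3, Epx and Ear6 loci. The horizontal axis is the distance from the edge of the locus in kb, with granule genes drawn at 0. The locus of Ear1, Ear10 and Ear2, with its tested neighbour Gm8113, is not drawn. The neighbours drawn lie between -0.97 and 2.87, away from the granule genes.

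The 10 genes whose profile over the 7 libraries was most like the mean of the granule genes, of 9831 compared, were Alox15, Mcpt1, Mcpt2, Fcer1a, Cadm3, Ly6g, Mmp9, Mcpt4, Asprv1 and Rprm. The root mean square difference in centred log2 CPM was 0.74 for Alox15 and 0.95 for Rprm, while each granule gene differed from the mean of the others by 0.21 (Epx) to 0.50 (Ear1). Mcpt1, Mcpt2 and Mcpt4 are mast cell genes, Fcer1a is a marker of both mast cells and basophils, and Ly6g and Mmp9 are neutrophil genes. Markers of some other cell types were also lower in MN1. All 13 neutrophil markers were lower in MN1, and their summed CPM was 4393 to 8031 in MN1, 26816 to 37231 in MN1pQdel and 38839 in noTD. Of the mast cell markers 7 of 15 were lower, 12 without MN1pQdel replicate 2 and 11 with the replicate block; they summed to 1996 to 4428 CPM in MN1, to 16429, 3477 and 19765 CPM in MN1pQdel replicates 1, 2 and 3 and to 17154 CPM in noTD. Of the basophil markers 7 of 9 were lower, and 9 both without MN1pQdel replicate 2 and with the replicate block. They summed to 508 to 1040 CPM in MN1, 1486 to 5517 CPM in MN1pQdel and 5002 CPM in noTD. Over all tested genes 11.1% were lower and 6.08% higher, and without MN1pQdel replicate 2 or with the block 21.3% and 17% were lower. In other lists, 6 of 13 monocyte and macrophage, 1 of 7 promyelocyte and 1 of 9 erythroid markers were lower. Of the megakaryocyte markers 0 of 7 were lower and of the T and NK markers 0 of 2, and 0 markers of these lists were higher in the main fit. There, a list with 1 marker lower is near the share over all tested genes. Without MN1pQdel replicate 2, 8 monocyte and macrophage, 3 erythroid and 2 megakaryocyte markers were lower, and 2, 3 and 0 were higher. With the replicate block 7, 2 and 3 of them were lower, and 0, 1 and 0 higher. Over all tested genes 20.6% and 13.7% were higher in these fits. Of the dendritic cell markers 1 of 7 was lower and 1 higher, while 3 of 8 stem and progenitor and 2 of 4 B lymphoid markers were higher and 0 lower. Without MN1pQdel replicate 2, 3 stem and progenitor and 3 B lymphoid markers were higher, and 1 of each list was lower. No neutrophil, mast cell or basophil marker was at 0 in all libraries, and the part of these cell types in the granule gene result was not tested.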

How the data were processed

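Polyadenylated RNA was read from both ends at 150 bases, per the labels' protocols. The deposited table holds estimated counts for each gene symbol in 7 libraries, which the authors did not normalise; kallisto, DESeq2 and the GRCm38 build are named in the submitters' processing notes, with versions and transcript index not given in the sources used here. Of its values, 32.5% were not whole (tolerance 1e-06), and estimated counts were rounded.

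MN1 and MN1pQdel were compared with edgeR 4.0.16 (R 4.3.3): filterByExpr with a minimum count of 10, TMM, quasi-likelihood test, Benjamini-Hochberg adjustment over 14808 genes, threshold 0.05. noTD was kept out of that fit; differences from it used log2 CPM with a prior count of 2 and TMM over 7 libraries. In a second fit the 4 Ear rows were replaced by their sum. The SE of an edgeR log2 fold change was derived from the test: its absolute value divided by the square root of the quasi-likelihood F statistic. Scripts were tested on simulated data. DESeq2 1.42.0, other scalings and filters, a replicate block and the leaving out of each library were alternatives.

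Replicate numbers come from the sample titles. Libraries with the same number deviated together from their group means (correlations 0.368, 0.259 and 0.320 over genes; different numbers, -0.282 to -0.0602), so the numbers pair the libraries by the data.

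The members and gene lists were chosen with earlier results of these data known. Genes named are the granule genes; RNase A and peroxidase relatives with at least 10 counts in a library; up to 4 genes past the threshold per eosinophil list and 11 fixed ones; the 10 most alike of at least 5 CPM; and the 3 nearest neighbours on each side. Siglecf was matched as Siglec5 by its RefSeq synonym, and doubled symbols were removed, after the table was seen; the sequences printed were also chosen then. Lengths and 31-base words came from GENCODE transcripts, the longest coding one per gene.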

Additional observations from a re-analysis of the deposited data

How the results depend on the processing

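For the 6 tested granule genes and the Ear sum, the direction held under all 14 alternatives, and each call held under those that left out no single library, the replicate block included, under which 17% of all genes were lower and 13.7% higher; the block changed no granule gene call, but Il5ra, Ccr3, Gata1, Gata2, Rnase6, P2rx3, Slc43a1 and Ssrp1 passed with it. Leaving out 1 library gave log2 fold changes of -7.78 to -6.87 for Prg2, -7.01 to -6.13 for Prg3, -7.51 to -6.55 for Epx, -7.72 to -6.57 for Ear1, -7.15 to -6.19 for Ear2, -7.93 to -6.84 for Ear6 and -7.73 to -6.65 for the Ear sum, with 1 to 6 of the 6 genes called. Each such fit has fewer samples. In those fits 379 to 3256 genes were lower and 95 to 3157 higher, and 10 to 50 eosinophil list genes were lower; the highest counts came without MN1pQdel replicate 2. The block, which uses the pairing, gave 2523 lower and 2022 higher genes against 1643 and 901. Without both replicate 2 libraries there were 2617 and 2630. DESeq2 called 1907 genes higher and library totals alone 1847; under totals alone all genes had a median log2 fold change of 0.19 and the higher share of calls went from 35.4% to 61.8%. With totals alone, the Ear2 difference of MN1 from noTD was -7.46.

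Only genes that had not passed reversed, and the cause was not tested. With totals alone, Rnase10 was at 0.015, Ang at 0.15, Mpo at 0.058, Lpo at 0.041 and Mettl17 at 0.15. With the replicate block, Mpo was at 0.57 and Lpo at 0.29. Without the replicate 2 pair, Rnase10 was at 0.79 and Mpo at 1.20. Leaving out 1 library gave -0.68 to 0.70 for Rnase10, -0.18 to 0.11 for Ang, -0.59 to 1.42 for Mpo, -0.61 to 1.45 for Lpo, -0.15 to 0.051 for Mettl17 and -0.23 to 0.52 for Ndrg2. Depth limits Ear10, which cannot be compared, and the MN1 values of Ear1, Ear2 and Prg3, which rest on 13 to 40 counts.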

Other observations

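The balance between the neighbours Prg2 and Prg3 varied less than their levels. Per kilobase, Prg2 stood at 12.4, 15.9 and 20.4 times Prg3 in MN1 replicates 1, 2 and 3, at 26.6, 17.8 and 26.9 times in MN1pQdel and at 24.9 times in noTD. Between libraries of the same number the ratio was lower in MN1 in 3 of 3 pairs, although MN1 replicate 3 lay above MN1pQdel replicate 2; the difference was not tested, and the MN1 ratios rest on 20 to 40 counts of Prg3. Within the Ear sum, Ear6 took the highest share per kilobase in each library, from 35.9% in MN1 replicate 2 to 58.4% in MN1pQdel replicate 1. Ear1 took 33.0% in noTD and 21.4% to 24.1% in MN1pQdel, but its reads cannot be told apart in full from those of Ear2.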
